A study of Vitis vinifera with 6 samples.

Results

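Of the gene models measured in Pinot Noir berry skin, 109 out of 29549 gave a signal at or under the background limit on all 3 dark arrays and over it on all 3 arrays after ultraviolet-C light. The limit of each array was the mean plus 2 SD of its random-sequence control probes, and the mean log2 intensity, with each array's median subtracted, had to be at least 0.5 higher after UV. Gene models of the long chromosome 16 block 100, of chromosome 10 block 42 and of the sequence assigned to chromosome 18 without a position were left out by identifier. This removed 4 further models, all of them from the unpositioned sequence of chromosome 18. The members were therefore chosen on the difference between UV and dark, and every such difference given for them is a description with no test.

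Berries of Vitis vinifera, labelled wild type and harvested in a vineyard, were either placed for 1 hour at 50 cm under a lamp emitting at 253.7 nm or kept beside it under a box for the same hour (dark). Total RNA of the skin was hybridised with Cy3 label to 1-colour NimbleGen arrays, with 3 arrays per group from separate clusters. The labels do not say how long after the lamp the skin was taken, and they give no berry stage. All 6 arrays lay on 1 slide with the groups on separate positions, so slide position and treatment cannot be told apart. In bulk skin, fewer cells of a type and less RNA per cell cannot be told apart either.

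The skin of a grape berry is the outer tissue that carries wax, pigments and phenolic compounds. Short-wave ultraviolet light damages DNA directly and raises reactive oxygen, and plant cells answer with repair, antioxidant and defence genes. In grape, ultraviolet-C is a classic inducer of stilbene synthase, the enzyme that makes resveratrol from p-coumaroyl-CoA and malonyl-CoA. Of the array's identifiers, 0 were found in a RefSeq table of 29591 grape genes, and the files pair them with no name. The members are therefore described by identifier, in which CHR gives the chromosome, the letters the annotation source, and the 2 numbers the annotation block and the running number within it. The skin could not be checked against its defining markers for the same reason.

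The background was low on all arrays, but the limits differed. They were 1419, 1296 and 1434 units in dark replicates 1, 2 and 3, and 1306, 1330 and 1156 units in UV replicates 1, 2 and 3. A set of unchanged intensity could thus lie under a dark limit and over a UV limit. Random-sequence probes averaged 736 to 882 units, the limits ran from 1156 to 1434 units, the median probe set stood at 8967 to 11200 units, and 84.3% to 88.8% of all sets lay over the limit of an array. In the dark, 3088 sets (10.5%) were at or under the limit on all 3 arrays. After UV, 2685 of these were still at or under it on all 3 arrays, 248 were over it on 1 or 2 arrays, and 155 were over it on all 3. Of those 155, 42 had a difference under 0.5, and with the 4 left out by identifier 109 members remained, or 3.53% of the sets at background in the dark. The number depended on where the limit was put. At the mean plus 1 SD there were 35 members, 25 of them among the 109. At the mean plus 3 SD there were 186, 87 of them among the 109. With the minimum difference taken without centring, 91 members remained, all of them among the 109.

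At background does not mean without any signal. The dark intensity of the members averaged from 907 to 1351 units, with a median of 1145, and 107 of the 109 lay over the random-probe mean on every dark array. Their median ratio to that mean was 1.35 in the dark, against 1.23 for the 2685 sets at background on all 6 arrays. A set's value is a mean of up to 4 probes, whereas the limit rests on the spread of single random probes, so a set under it may still carry weak signal.

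After UV the members covered a wide range of levels, from a mean of 1415 to 22060 units with a median of 2006. A mean under 2000 units was found for 53 of them, a mean of 2000 to 5000 for 42, of 5000 to 10000 for 8, and of over 10000 for 6. The brightest member was brighter than 71.1% of all sets after UV, and the median member than 22.2%. Most members thus rose only into the dim part of the array's range, and a small number reached the level of a typical expressed gene.

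**Figure D1:**
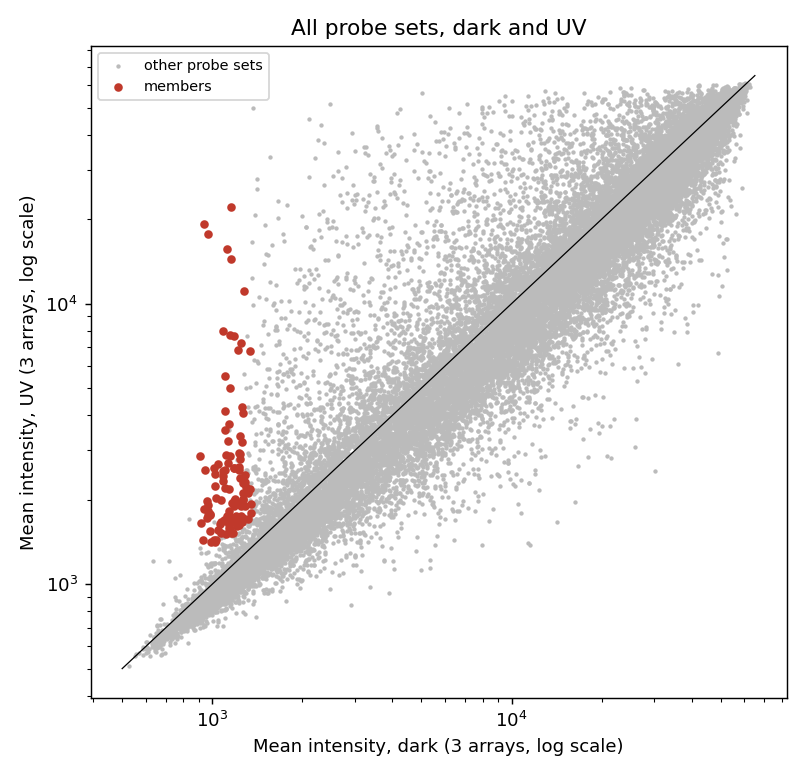
Mean intensity of each probe set in the dark (x axis, 3 arrays, log scale) and after UV (y axis, 3 arrays, log scale), with equal values on the line; red points are the 109 members and grey points the other sets. The members form a narrow column at 907 to 1351 units in the dark that extends to 22060 units after UV.

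Since the dark level of a member is only known to lie at or under the limit, its fold is given as a lower bound. The bound sets the mean log2 intensity over the UV arrays against the dark arrays, where the member's own value was raised to the lowest intensity over the limit, on values centred on each array's median and without background correction. The list was led by 6 identifiers, each with a bound of at least 8-fold. Since the median intensity differed between arrays, a bound on centred values can exceed the ratio of the uncentred intensities, and without centring the median bound of all members was 1.44-fold in place of 1.59-fold.

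CHR15_JGVV24_17_T01 on chromosome 15 gave 1110, 1156 and 1203 units in dark replicates 1, 2 and 3, and 26927, 19817 and 19435 units in UV replicates 1, 2 and 3. Its lower bound over the mean of the UV arrays was 17.4-fold, the highest of any member, and it was 15.2-fold on UV replicate 3 alone. CHR15_JGVV24_20_T01, 3 running numbers further on in the same block, gave 924, 1025 and 943 units in the dark and 20163, 16828 and 16119 units after UV. The lower bound of CHR15_JGVV24_20_T01 was 14-fold. Both were highest in UV replicate 1, with the other 2 UV arrays close together. The gene model between them on the array, CHR15_JGVV24_19_T01, was bright in both groups, at 43392 ± 1775 units in the dark and 41856 ± 1794 units after UV (SD, n = 3 each), and did not pass the test (log2 change -0.03, limma, adjusted p = 0.68).

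CHR13_GSVIVT00016486001_T01 on chromosome 13 gave 959, 864 and 996 units in the dark and 33490, 14120 and 9982 units after UV. This member held the highest intensity of all members on a single array, and its UV arrays differed from each other by 3.35-fold, the widest spread of any member. Its bound was at least 13.4-fold over all UV arrays. CHR4_JGVV23_159_T01 on chromosome 4 was steadier, with 1081, 1059 and 1208 units in the dark and 16417, 13368 and 17040 units after UV. The lower bound of this member was 12.4-fold.

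CHRUN_JGVV748_1_T01 lies on sequence not assigned to a chromosome and is a model numbered 1 in its block. It gave 1106, 1056 and 1300 units in the dark and 20204, 13362 and 9693 units after UV, so that the highest UV array exceeded the lowest clearly. Its lower bound over the UV arrays was 11-fold. CHR5_JGVV49_46_T01 on chromosome 5 gave 1292, 1235 and 1291 units in the dark and 11625, 12060 and 9512 units after UV. The lower bound of CHR5_JGVV49_46_T01 was 8.77-fold on centred values and 7.96-fold without centring. The next model of that block, CHR5_JGVV49_47_T01, was over the limit on 5 of 6 arrays, which kept it out of the members, and went from 1424 ± 107 to 6124 ± 1514 units (SD, n = 3 each; log2 change 2.89, SE 0.22, limma, adjusted p = 0.00034).

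A second tier of 7 members had bounds from 4.38-fold to 6.30-fold. CHR13_JGVV19_110_T01 gave 1087, 1017 and 1160 units in the dark and 9648, 7424 and 6907 units after UV. CHR11_JGVV16_37_T01 gave 1159, 1064 and 1219 units, then 7555, 9608 and 5963 units, and here UV replicate 2 was the highest. CHR1_JGVV10_176_T01 gave 1097, 1116 and 1332 units, then 8394, 8601 and 5943 units, with UV replicate 3 the lowest. Their UV means were 7993, 7709 and 7646 units, and their bounds of 6.30-fold, 6.03-fold and 6.01-fold lay closer together than their UV arrays did.

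CHR11_JGVV16_337_T01, in the same block as the other chromosome 11 member of that tier, gave 1163, 1249 and 1342 units in the dark and 7414, 7836 and 6423 units after UV. CHR19_PDVV90_58_T01 gave 1204, 1201 and 1255 units, then 5785, 6800 and 7971 units. For this member UV replicate 1 was the lowest of the 3, unlike in most members. CHR5_JGVV94_112_T01 gave 1411, 1228 and 1363 units, then 8328, 6584 and 5375 units, and its dark replicate 1 lay just under that array's limit of 1419 units. CHR9_JGVV2_357_T01 was the most even of the tier, at 1084, 1093 and 1130 units in the dark and 5551, 5463 and 5492 units after UV.

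The other 7 of the 20 members with the largest bounds lay between 2.64-fold and 3.69-fold. CHR9_RANDOM_JGVV162_11_T01, on unpositioned sequence of chromosome 9, went from 1085, 1075 and 1286 units to 6920, 5460 and 2639 units, one of the least even responses. CHR15_JGVV21_196_T01 rests on a single probe, and gave 1219, 1245 and 1306 units in the dark and 4875, 3461 and 4456 units after UV. CHR3_JGVV132_35_T01 gave 1388, 1035 and 1376 units, then 4652, 3954 and 3628 units, with dark replicate 2 clearly the lowest of its group. Of the remaining 4, CHR1_GSVIVT00000945001_T01 reached 4131 ± 1002 units (SD, n = 3) and CHRUN_GSVIVT00005245001_T01 reached 3711 ± 344 units (SD, n = 3). CHR3_GSVIVT00000354001_T01 reached 3532 ± 467 units and CHR18_JGVV41_20_T01 reached 3379 ± 825 units (SD, n = 3 each). In all 20 the lowest UV array was over the highest dark array, as the rule itself nearly ensures.

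**Figure D2:**
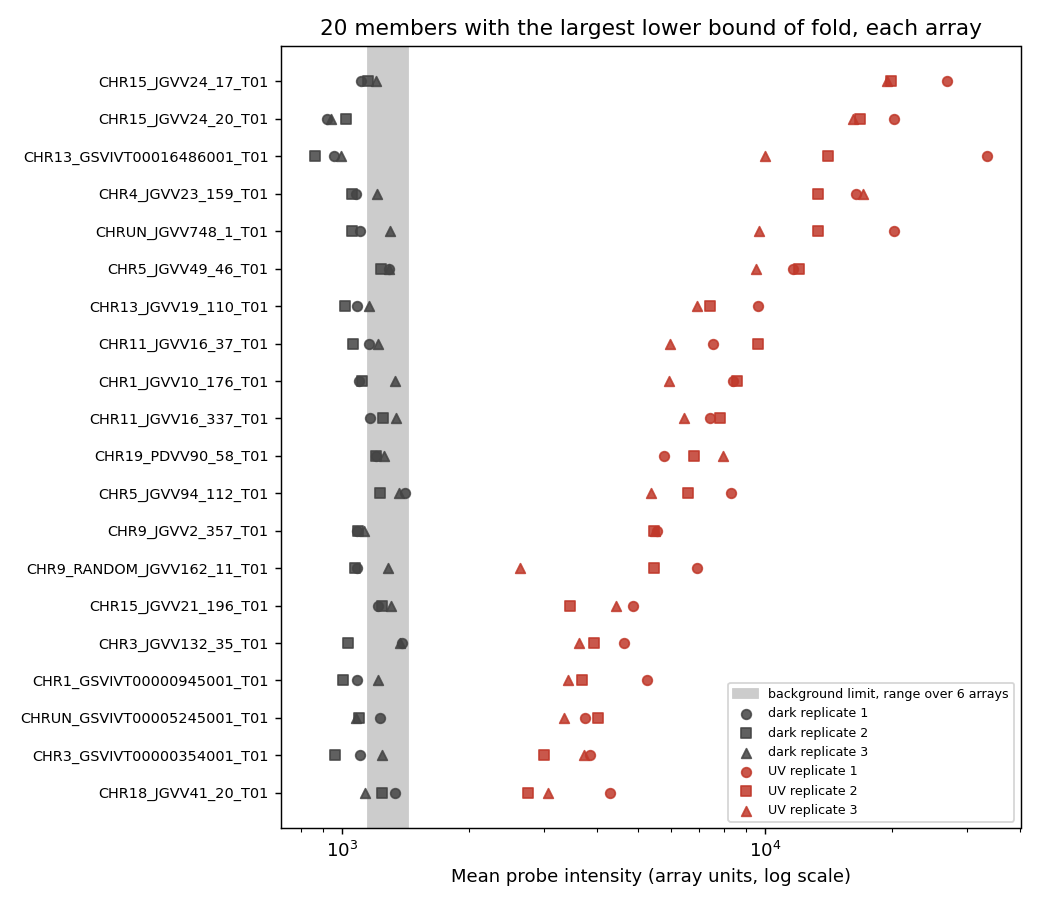
Mean probe intensity (x axis, array units, log scale) of the 20 members with the largest lower bound of fold, 1 point per array, dark in grey and UV in red, with replicates by symbol; the grey band is the range of the background limits, 1156 to 1434 units. Each dark point lies at or under its own array's limit, and the UV points range from 2639 to 33490 units.

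Over all 109 members the lower bound had a median of 1.59-fold and ran from 1.12-fold to 17.4-fold. It was at least 1.5-fold for 64 members, at least 2-fold for 36, at least 4-fold for 13 and at least 8-fold for 6. With the limit at the mean plus 3 SD, 22 of the 109 had a bound of at least 2-fold. Taken on 1 UV array at a time, the median bound was 1.87-fold for replicate 1, 1.57-fold for replicate 2 and 1.45-fold for replicate 3. On single arrays some bounds lay under 1-fold, as for CHRUN_JGVV262_5_T01 with 0.905-fold on UV replicate 3.

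**Figure D3:**
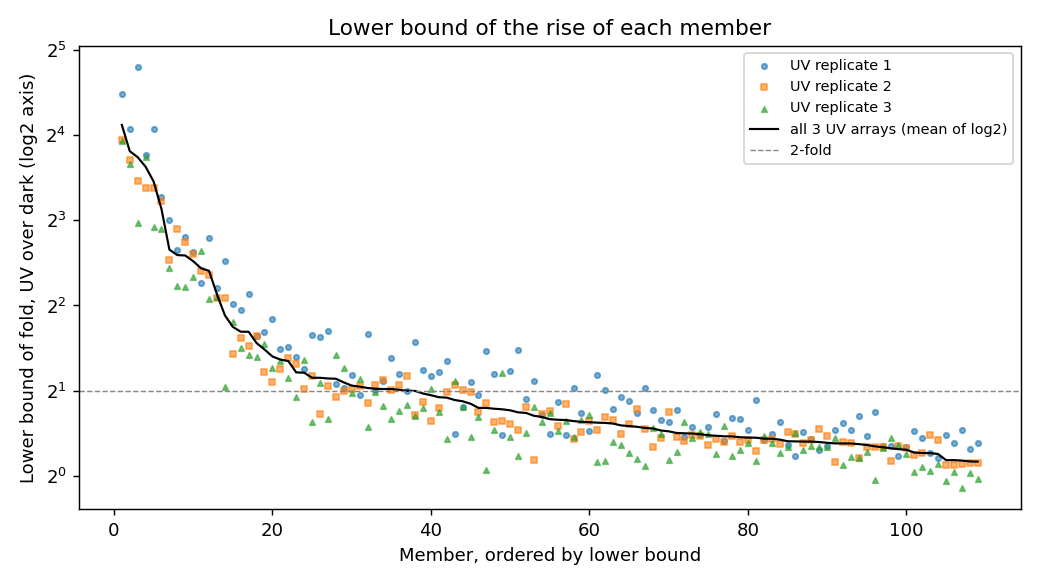
Lower bound of the fold of UV over dark (y axis, log2 axis) for the 109 members in order of their bound (x axis); points are single UV arrays, the line uses all 3 UV arrays, and the dashed line marks 2-fold. The line falls from 17.4-fold to 2-fold within the first 36 members, and ends at 1.12-fold.

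The members near the threshold were close to sets that missed it. The smallest differences inside, in log2 units after median centring, were 0.50 for CHR18_JGVV1_173_T01, 0.51 for CHR12_JGVV28_310_T01 and 0.52 for CHR10_JGVV71_90_T01. The largest among sets that met the rest of the rule but stayed outside were 0.49 for CHR14_JGVV6_181_T01 and CHR13_JGVV19_170_T01, and 0.47 for CHR13_JGVV64_64_T01. CHR18_JGVV1_173_T01 gave 1207, 1074 and 1248 units in the dark and 1633, 1549 and 1369 units after UV. CHR14_JGVV6_181_T01, outside, gave 1406, 1152 and 1298 units, then 1374, 1717 and 1856 units, so that its UV replicate 1 lay below its dark replicate 1. Such overlap was found inside as well: CHR10_JGVV71_90_T01 gave 1281, 1157 and 1253 units, then 2027, 1625 and 1235 units, with UV replicate 3 below dark replicates 1 and 3. The detection limit was as fine a line: CHRUN_JGVV262_5_T01 entered with 1156 units on UV replicate 3, where the limit was 1155.5 units. For CHR3_JGVV17_92_T01 and CHR4_JGVV23_69_T01 the lowest UV array exceeded its limit by a ratio of 1.06.

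The UV arrays differed from each other more than the dark arrays did, in which the limit caps the members from above. The median SD of log2 intensity was 0.21 over the UV arrays and 0.11 over the dark arrays, against 0.12 and 0.090 for all sets. The 54 members with 4 probes and a UV level between the members' quartiles had a median SD of 0.23 after UV, and 2398 other sets of that brightness and detected on all UV arrays had 0.14. After median centring, UV replicate 1 was the highest UV array for 78 members and UV replicate 3 the lowest for 74. The median difference from the dark mean in log2 units was 1.16 for replicate 1, 0.96 for replicate 2 and 0.89 for replicate 3. In 6 members the UV arrays spanned over 2-fold. Besides the member on chromosome 13 and the one on unpositioned sequence of chromosome 9, the largest spread was that of CHR14_JGVV68_134_T01, with 1196, 1026 and 1037 units in the dark and 3337, 2330 and 1336 units after UV.

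The 4 probes of a set differed in intensity, and how much each of them rose was not measured. The coefficient of variation (CV) among the probes, which is their SD divided by their mean, had a median of 0.24 in the dark and 0.45 after UV over the 107 members with 4 probes, and it was higher after UV in 91 of them. Over all sets and arrays the median CV was 0.41. Among members of middle UV level the median was 0.41, and among the other 2398 sets of that brightness it was 0.45. A CV over 1, which needs some probes far above the others, was found for 5 members after UV. The highest values were 1.23 for CHR3_JGVV132_35_T01, 1.18 for CHR5_JGVV94_112_T01 and 1.15 for CHR16_JGVV50_141_T01, which gave 2758, 1991 and 1857 units after UV. At the other end stood CHR18_JGVV1_173_T01 at 0.080, CHR19_JGVV14_360_T01 at 0.11 and CHR7_JGVV141_38_T01 at 0.11. The strong members were found at both ends: the CV after UV was 0.12 for CHR13_GSVIVT00016486001_T01 and 0.85 for CHRUN_JGVV748_1_T01. Across the 107 members, which share arrays, the bound and the CV after UV had a Spearman correlation of 0.096.

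**Figure D4:**
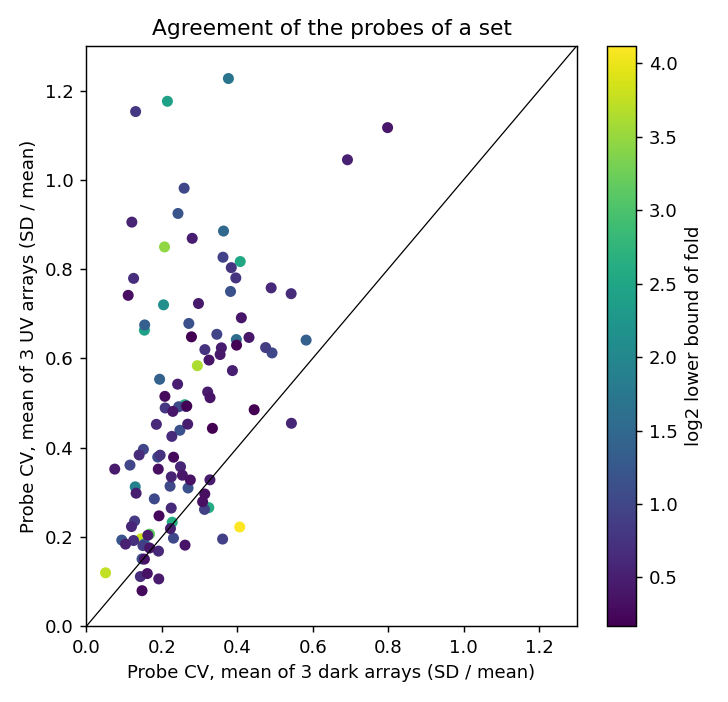
Coefficient of variation among the probes of a set, averaged over 3 dark arrays (x axis) and over 3 UV arrays (y axis), for the 107 members with 4 probes, coloured by the log2 lower bound of fold; equal values lie on the line. In 91 members the point lies above the line, and 5 exceed 1 after UV.

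The members were found on most chromosomes. They lay on 18 of the 19 chromosomes, with none among the 91 sets of chromosome 2 that were at background in the dark. Chromosome 1 held 11 members (7.24% of its sets at background in the dark), chromosome 18 held 9 (4.21%), chromosome 12 held 8 (5.56%) and unassigned sequence 15 (6.05%), against 3.53% over the whole array. By annotation source, 90 members had the prefix JGVV (3.90% of such sets at background in the dark), 14 had GSVIVT (2.53%) and 5 had PDVV (2.23%). These shares were not tested. The 95 members with a running number fell into 63 annotation blocks, 20 of which held 2 or more. Block 10 of chromosome 1 had 7 members among its 276 models on the array, and block 2 of chromosome 9 had 5 among 745. Over the whole array, members made up 0.369% of all sets.

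Some members were neighbours of each other, while members made up 0.369% of all sets. Members at most 3 running numbers apart formed 7 groups, 6 of them pairs. These held 15 of the 95 members with a running number. Whether that is more than an even spread would give was not tested. The one group of 3 lay on chromosome 1, with CHR1_JGVV10_139_T01, CHR1_JGVV10_141_T01 and CHR1_JGVV10_142_T01 at 2399 ± 361, 1791 ± 252 and 1646 ± 232 units after UV (SD, n = 3 each). Between them CHR1_JGVV10_140_T01, which was over the limit on 4 arrays, went from 1308 ± 122 to 2558 ± 369 units (SD, n = 3 each; log2 change 1.67, SE 0.19, limma, adjusted p = 0.0016). Of the other models beside them, CHR1_JGVV10_138_T01 (log2 change 0.69, adjusted p = 0.038) and CHR1_JGVV10_143_T01 (0.64, adjusted p = 0.027) were called higher by limma, while CHR1_JGVV10_144_T01 was bright, at 39395 ± 6741 units in the dark and 31899 ± 9520 units after UV (SD, n = 3 each), and was not called (adjusted p = 0.36).

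In the pair on chromosome 9, CHR9_JGVV2_356_T01 gave 1128, 1042 and 1103 units in the dark and 1686, 1742 and 1668 units after UV, far below CHR9_JGVV2_357_T01 beside it. Their neighbours did not share the course: CHR9_JGVV2_355_T01 was at background throughout, and CHR9_JGVV2_359_T01, which is 2 models from the pair, fell from 11390 ± 2742 to 1404 ± 146 units (SD, n = 3 each; log2 change -3.46, SE 0.12, limma, adjusted p = 3e-05). The pair on chromosome 14, CHR14_JGVV81_43_T01 and CHR14_JGVV81_44_T01, reached 1995 ± 318 and 1661 ± 202 units after UV (SD, n = 3 each). The pair on chromosome 12, CHR12_JGVV59_240_T01 and CHR12_JGVV59_241_T01, reached 1673 ± 227 and 1827 ± 351 units (SD, n = 3 each). The models on both sides of the chromosome 14 pair did not pass the test, and of those beside the chromosome 12 pair CHR12_JGVV59_239_T01 was called higher (log2 change 0.40, limma, adjusted p = 0.016).

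On unassigned sequence, CHRUN_JGVV437_3_T01 and CHRUN_JGVV437_5_T01 reached 1817 ± 78.1 and 2873 ± 946 units after UV (SD, n = 3 each). In block 262, CHRUN_JGVV262_3_T01 reached 2468 ± 325 units and CHRUN_JGVV262_5_T01 reached 1442 ± 298 units (SD, n = 3 each). The models around the latter pair differed. CHRUN_JGVV262_2_T01, directly beside the pair, rose from 1374 ± 182 to 3873 ± 946 units (SD, n = 3 each, log2 change 2.24, SE 0.24, limma, adjusted p = 0.0012). Further out, CHRUN_JGVV262_8_T01 and CHRUN_JGVV262_9_T01 were also called higher (log2 change 2.37 and 1.16, limma, adjusted p = 0.00050 and 0.0095). CHRUN_JGVV262_1_T01 and CHRUN_JGVV262_7_T01 did not pass the test (limma, adjusted p = 0.38 and 0.069), whereas CHRUN_JGVV262_6_T01 rose from 3641 ± 848 to 14303 ± 1949 units (SD, n = 3 each; log2 change 2.31, SE 0.18, limma, adjusted p = 0.00038).

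A stretch on chromosome 8, singled out after its values were seen, showed members at the 2 ends of a run of expressed genes. CHR8_JGVV7_95_T01 and CHR8_JGVV7_100_T01 went from 1185 ± 80.0 and 1239 ± 147 units to 1987 ± 412 and 2919 ± 335 units (SD, n = 3 each). The 4 models between them were over the limit on all 6 arrays, and all 4 were called higher by limma. Among these CHR8_JGVV7_97_T01 went from 2787 ± 385 to 17381 ± 3951 units (SD, n = 3 each; log2 change 3.05, SE 0.20, adjusted p = 0.00022) and CHR8_JGVV7_98_T01 from 8034 ± 2719 to 29044 ± 4719 units (SD, n = 3 each; log2 change 2.09, SE 0.33, adjusted p = 0.0048). CHR8_JGVV7_94_T01 and CHR8_JGVV7_101_T01, the models outside the run, were not called (adjusted p = 0.13 and 0.059). Signal shared between similar gene copies could not be separated, since probe sequences were not used here.

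**Figure D5:**
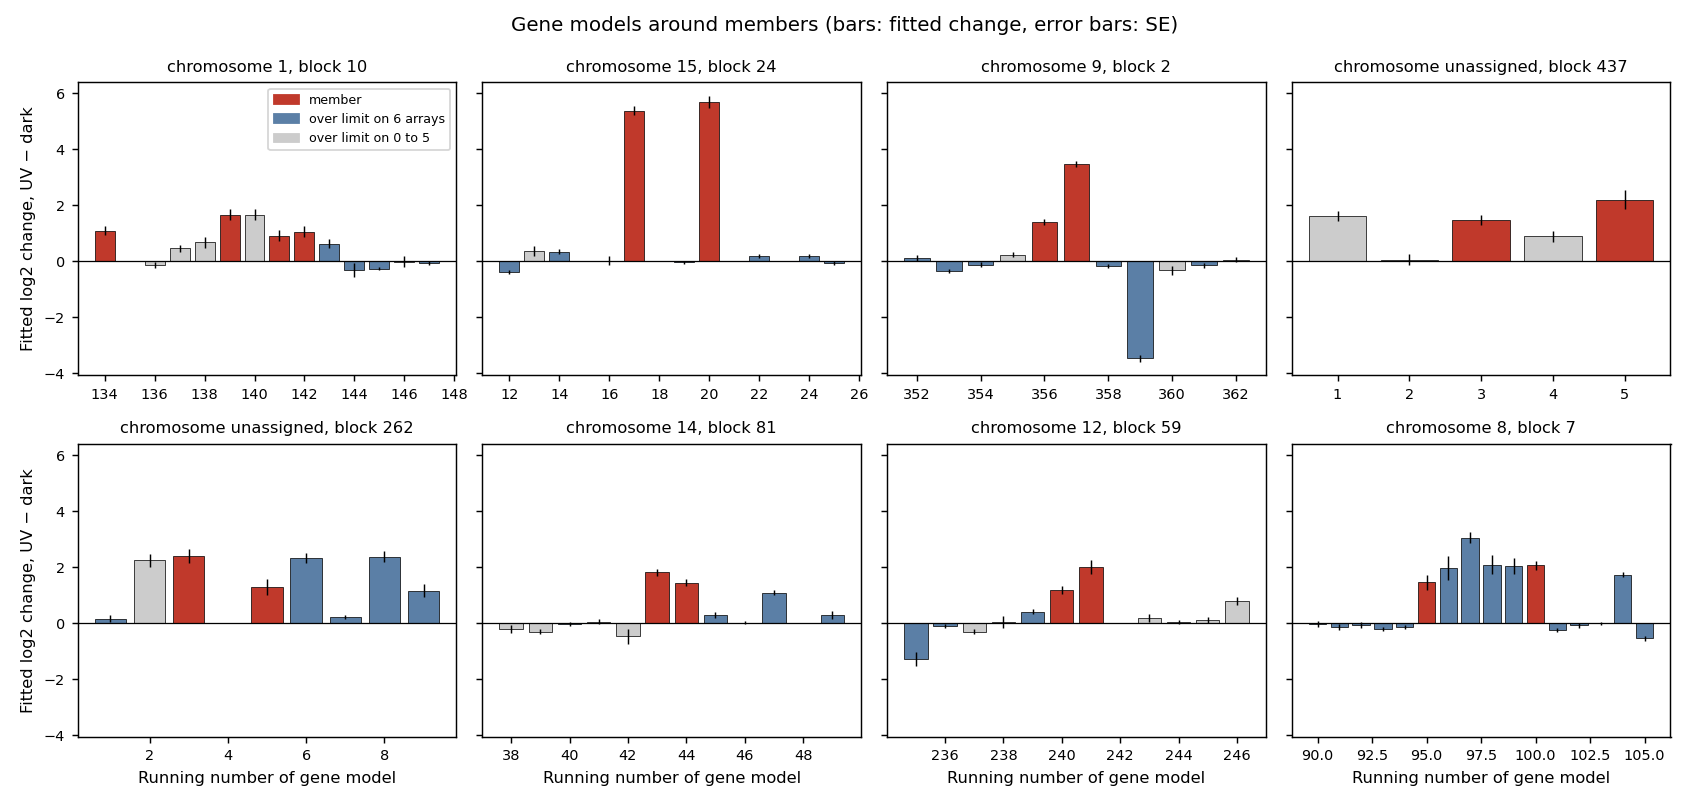
Fitted log2 change of UV over dark (y axis, bars, with SE) of the gene models around the 7 groups of members and around the chromosome 8 run, by running number in the annotation block (x axis, 5 models to each side); members are red, sets over the limit on all 6 arrays blue, and others grey. The 2 members of chromosome 15 stand alone among bars near 0, and the 2 members of chromosome 8 flank 4 bars that are also above 0.

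Taken over all members, 150 other gene models carried the running number next to a member's. Of these 53 (35.3%) were called higher by limma and 20 (13.3%) lower, where 15.8% of all sets were called higher and 20.9% lower. By over 1 on the log2 scale, 22 (14.7%) of the neighbours were called higher, against 5.05% of all sets. Of the 431 models within 3 running numbers, 115 (26.7%) were called higher and 77 (17.9%) lower. The shares were not tested against each other, and members of the same run count some neighbours jointly. Among the 150 directly adjacent models, the largest rise was that of CHR11_JGVV16_138_T01, next to CHR11_JGVV16_139_T01, which went from 3230 ± 554 to 21414 ± 3915 units (SD, n = 3 each; log2 change 3.09, SE 0.18, limma, adjusted p = 0.00014). The largest fall among those 150 was that of CHR1_JGVV182_11_T01, next to CHR1_JGVV182_12_T01, which fell from 26228 ± 3447 to 5295 ± 1966 units (SD, n = 3 each; log2 change -2.38, SE 0.25, limma, adjusted p = 0.0010). Of the 150 next models, 116 were over the limit on all 6 arrays and 18 (12%) at background on all 6, against 9.09% of all sets.

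In the fit across all sets, 109 of the 109 members were called higher, where 15.8% of all sets were. The rule used the same contrast, so the count adds no support. Adjusted p-values ran from 1.3e-05 to 0.048 (limma), the highest being those of CHR10_JGVV71_90_T01, CHRUN_JGVV253_16_T01 (0.033) and CHR16_JGVV13_100_T01 (0.033). The median fitted log2 change was 1.77 with normexp background correction, against -0.05 for all sets. It was 1.02 with uncorrected intensities and 2.63 once each array's random-probe mean was subtracted, so the size of a fitted change of such dim sets depended on the background treatment. The fitted changes of dim models beside members also come from corrected values. They can exceed the ratio of the uncorrected intensities printed with them, as for CHR1_JGVV10_140_T01.

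Most members were missing from the value table that the authors also deposited. It listed 37 of the 109 (33.9%), where it listed 23096 of all sets (78.2%). No set left out of it reached 3000 units on any array, the highest standing at 2998, while 22574 of its sets did reach 3000 and 522 did not. Among the members, 35 reached 3000 units on some array, all of them listed, and 2 listed members did not. All 20 members with the largest bounds were in the table, and the 72 others had a median of 1767 units after UV, against 3532 for the 37. The limma fit on that table called all 37 higher, where it called 17.5% of its sets higher, again on the contrast that chose them.

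The opposite course was also found. Without a minimum difference and with no identifier left out, 101 sets were over the limit on all dark arrays and at or under it on all UV arrays, against 155 the other way. With the whole rule mirrored, 37 sets remained, with a difference of at least 0.5. Their median bound was 1.38-fold, the highest 2.77-fold, and 4 of the 37 had a bound of at least 2-fold, against 36 of the 109 members. The brightest of them averaged 3898 units in the dark, and the brightest member 22060 units after UV. Both sets were chosen by their values, so the contrast between them was not tested. The limits were also unequal, at 1296 to 1434 units on the dark arrays and 1156 to 1330 units on the UV arrays. The counts in the 2 directions were therefore not taken on equal terms.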

How the data were processed

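The 6 array files give per gene model the mean intensity of its perfect-match probes on a linear scale and their CV, a ratio of SD to mean, per the file headers; both were deposited by the authors without normalization. A second table deposited by the authors holds log10 values of 23096 sets. Differences between its columns were 0.301 times those in log2 intensity (r = 1.00 in every pair), so it holds log10 intensity scaled per array and centred per set, with a baseline that stays unknown. The medians of its dark columns, replicates 1 to 3, were -0.00018, 0.0100 and 0.0072, and those of its UV columns -0.0174, -0.0057 and -0.0121. The build, the annotation version and the imaging software were not given in the sources used here.

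Members were found on log2 intensity minus each array's median, without background correction. The fit used normexp (offset 50) and quantile normalization on the log2 scale, then lmFit and eBayes in limma 3.58.1 (R 4.3.3), two-sided, over 29549 sets and all 6 arrays, with no covariate and Benjamini-Hochberg adjustment at 0.05. The fit was tested on simulated data. The number of arrays, 3 per group, limits the precision. Members and lists were chosen with earlier results of these data known. Members named are the 20 with the largest lower bound, 3 at each threshold or extreme of spread, probe CV and adjusted p, and the groups of neighbours; models beside members and the chromosome 8 run were picked after their values were seen; gene lists by symbol had 0 measured members. No sequences are shown, since none were held for these identifiers.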

Additional observations from a re-analysis of the deposited data

How the results depend on the processing

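Of 582 refits of named members, 563 kept their call and 19 lost it. The rule chose the members on the same contrast, so kept calls and directions carry no weight. All 19 concerned CHR10_JGVV71_90_T01, CHR14_JGVV68_134_T01, CHR16_JGVV13_100_T01, CHRUN_JGVV253_16_T01 and CHRUN_JGVV262_5_T01. Of 430 recomputed lower bounds of named members, 383 moved by less than the SD over the UV arrays and 47 by more. The filter on dim sets passes the members only through their UV arrays, so their 109 calls under it carry no weight. The number of members was 35 at a limit of mean plus 1 SD, 25 of them among the 109. It was 186 at mean plus 3 SD, 87 of them among the 109. With a minimum difference of 1 it was 54, and a higher minimum can only lower the number. Over the original 109 members, the median lower bound moved from 1.59-fold to 1.84-fold at plus 1 SD and 1.33-fold at plus 3 SD. At plus 3 SD, 22 of these 109 had a bound of at least 2-fold. Uncorrected intensities gave a median fitted log2 change of 1.02, and subtraction of each array's random-probe mean gave 2.63. Calls among members numbered 37 in the authors' value table, which holds no others. Without normalization between arrays 2939 of all sets were called higher; the cause was not tested. Within 3 running numbers 115 neighbours were called higher, since more models are counted.

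With any 1 array left out, 106 to 148 members met the rule. Of the original 109 members, 101 to 108 were called higher in these refits, with a median fitted change of 1.54 to 1.85. Of all sets 3471 to 4199 were called higher, and of the next neighbours 42 to 52. The median bound of the original 109 was 1.47-fold to 1.70-fold, and 30 to 43 of them had a bound of at least 2-fold. With the replicate number as a block, 109 members, 3759 of all sets and 45 next neighbours were called higher. Same-numbered arrays deviated with correlations of -0.044, -0.059 and -0.033, so the numbers do not pair the samples. Signal near background limits what can be said of the members' dark level.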
